A study of Mus musculus with 9 samples.

Results

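The genes described here are 41 genes of the antioxidant, glutathione and xenobiotic response, chosen by name: every probe whose annotated symbol, or an older synonym of it, matched one of the 41 symbols was taken. A probe was found for 34 of them, 36 probes in all, among 17742 named genes and 26423 probes on the array. Gpx2, Gsta1, Gsta2, Sod1, Akr1b3, Cyp1a1 and Cyp1b1 had no matching symbol and were not analysed here. Gpx4 and Sod2 had a second, dimmer probe. RNA labelled as skin of female BALB/c mice was hybridised to 9 arrays, 3 for each of 3 groups. Mock mice received Vaseline cream on the shaved back for 7 days. IMQ mice received imiquimod in its place, an agonist of toll-like receptor 7 that gives a psoriasis-like inflammation of mouse skin. Vanillin mice received the same imiquimod and, by mouth, vanillin at 100 mg/kg. The treatment label states both agents, while the source label of these samples reads as 1 or both. No group received vanillin without imiquimod. Whether each of the 3 arrays of a group holds another mouse is not stated in the labels. The p-values therefore speak only of how far these arrays scatter, which may be technical scatter.

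The transcription factor NRF2 (NFE2L2), encoded by Nfe2l2, is held in the cytosol and marked for degradation by KEAP1. Oxidants and electrophiles modify KEAP1, and NRF2 then enters the nucleus and binds antioxidant response elements beside genes of glutathione synthesis, thioredoxin recycling and detoxification. The aryl hydrocarbon receptor (AHR), encoded by Ahr, is a sensor of foreign and tryptophan-derived compounds, binds xenobiotic response elements and induces cytochrome P450 genes and its own repressor, AHRR. Both pathways act in keratinocytes, where the NRF2 pathway protects against light, oxygen and chemicals.

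Values are log2 of the deposited intensities, whose distributions were already nearly equal between arrays, so only changes relative to the other probes are seen. A gene was called where limma's adjusted p over all probes was under 0.05. Differences are on the log2 scale, where 1 unit is a doubling, and where 2 are given for a gene the first is IMQ minus Mock and the second Vanillin minus IMQ. Of the 34 measured members 9 rose and 9 fell in IMQ against Mock, 52.9% called beside 55.9% of all named genes, with a median difference of 0.02 (all genes -0.06). In Vanillin against IMQ 8 rose and 5 fell, 38.2% beside 42.8%, with a median of -0.06 (all genes 0.06). Both shares lay near the background and are no result about the members as a group. The second count was 6 without IMQ array 1 or 3, 7 without Vanillin array 2, and 26 (12 higher, 14 lower) with array weights. In Vanillin against Mock 9 rose (all genes 13.4%) and 7 fell (all genes 15.9%), in all 47.1% beside 29.3%, with a median of 0.07 (all genes 0.01). Groups of arrays did not overlap for 22 members in the first comparison (all genes 70.0%), 22 in the second (all genes 62.0%) and 16 in the third (all genes 41.1%). The comparisons share arrays: IMQ arrays enter the first and the second with opposite sign. Members scattered least among IMQ arrays, with a median SD of 0.0456 on the log2 scale, beside 0.102 for Vanillin and 0.159 for Mock. IMQ arrays also had the lowest median SD over all probes, 0.0792 beside 0.170 for Vanillin and 0.158 for Mock.

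**Figure D1:**
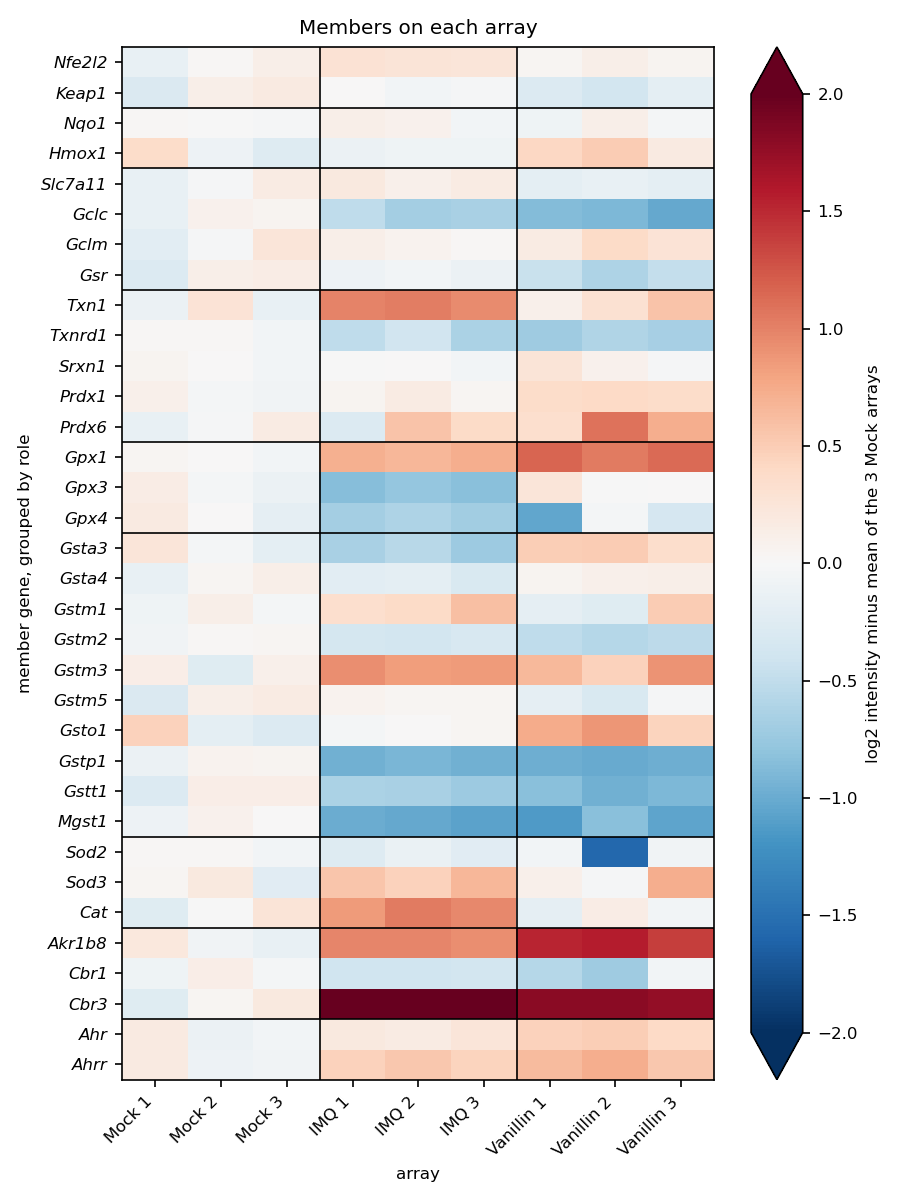
Log2 intensity of each of the 34 measured members on each of the 9 arrays, minus the mean of the 3 Mock arrays, with members grouped by role. Red is above and blue below the Mock mean; Cbr3 and Akr1b8 are red on all 6 arrays with imiquimod, Gstp1 and Mgst1 are blue on all 6, and Sod2 stands low on Vanillin array 2.

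The tissue label names skin and the extraction text names muscle. Suprabasal keratinocyte markers had a median intensity percentile of 99.65 among all probes and skeletal muscle markers one of 98.35, so both were bright. In such bulk samples fewer cells of a type and less RNA per cell cannot be told apart. Array correlations ran from 0.984 to 0.996 within groups, and median intensities from 628.9 to 631.1.

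Letters close to the start sites are shown for members on which the results turn and which differ in their response. The core of the antioxidant response element was searched as TGACNNNGC and that of the xenobiotic response element as GCGTG, on both strands, in windows of 300 bases (250 before and 50 after a start) of RefSeq, build GRCm38.p6. Windows were held for 33 of the 41 genes. Of these, 9 genes (27.3%) held TGACNNNGC in at least 1 window beside 14.0% of all genes, and 19 (57.6%) held GCGTG beside 35.2%. The 2 motifs can overlap, as they do upstream of Gstm5 and Sod1. A match is a run of letters and no measured binding site, and a window without one says nothing about the factor. The 250 bases before the start are printed 5′ to 3′ on the gene's strand. Capitals mark TGACNNNGC or its reverse complement in the first 4 and GCGTG in the last.
Gsta3 (chr1:21240335-21240584, + strand): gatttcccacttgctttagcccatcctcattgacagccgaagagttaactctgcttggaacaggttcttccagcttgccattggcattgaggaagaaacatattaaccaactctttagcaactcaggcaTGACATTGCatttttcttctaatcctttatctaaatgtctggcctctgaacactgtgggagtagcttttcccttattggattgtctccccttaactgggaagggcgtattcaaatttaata
Mgst1 (chr6:138140277-138140526, + strand): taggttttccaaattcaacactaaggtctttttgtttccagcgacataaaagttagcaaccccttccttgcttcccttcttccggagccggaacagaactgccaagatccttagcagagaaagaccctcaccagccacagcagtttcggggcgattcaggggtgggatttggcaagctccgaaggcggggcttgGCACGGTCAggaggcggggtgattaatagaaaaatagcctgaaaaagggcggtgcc
Prdx1 (chr4:116685349-116685598, + strand): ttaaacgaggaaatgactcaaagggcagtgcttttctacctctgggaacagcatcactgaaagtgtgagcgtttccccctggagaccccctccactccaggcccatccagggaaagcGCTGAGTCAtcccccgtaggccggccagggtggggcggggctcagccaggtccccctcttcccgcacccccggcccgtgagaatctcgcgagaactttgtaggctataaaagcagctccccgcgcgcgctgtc
Txnrd1 (chr10:82858956-82859205, + strand): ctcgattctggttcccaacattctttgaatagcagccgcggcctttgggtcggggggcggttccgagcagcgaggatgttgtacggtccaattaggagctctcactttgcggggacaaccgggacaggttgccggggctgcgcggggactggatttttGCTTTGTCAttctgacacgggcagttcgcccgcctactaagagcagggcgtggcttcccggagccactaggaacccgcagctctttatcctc
Akr1b8 (chr6:34353896-34354145, + strand): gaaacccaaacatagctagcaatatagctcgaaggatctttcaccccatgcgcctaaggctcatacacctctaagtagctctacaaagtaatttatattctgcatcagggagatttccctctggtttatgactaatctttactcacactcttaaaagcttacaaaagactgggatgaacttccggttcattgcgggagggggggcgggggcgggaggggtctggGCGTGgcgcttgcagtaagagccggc
Gsta3 carried TGACATTGC, whose first base lies 121 bases before the start, and its intensity was lowest in IMQ. The matches of Mgst1 (GCACGGTCA, from 56 bases before the start, in 1 of its 2 windows), Prdx1 (GCTGAGTCA, from 133) and Txnrd1 (GCTTTGTCA, from 92, in 1 of its 3 windows) read on the opposite strand. These 4 genes with a match were chosen as differing in their response, so they say nothing about genes with the motif as a set. As given below, Mgst1 and Txnrd1 fell with imiquimod, Gsta3 fell with imiquimod and rose with vanillin, and Prdx1 rose with vanillin. Cbr3, the member with the largest rise, had neither motif in its window. Akr1b8 had GCGTG from 26 bases before the start and no TGACNNNGC. The other genes with TGACNNNGC were Gclm, Gstm5, Nfe2l2, Srxn1 and Sod1. Of these, Gclm, Gstm5 and Srxn1 were called in no comparison, Nfe2l2 rose slightly with imiquimod and Sod1 had no probe.

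Of the regulators, Nfe2l2 rose slightly with imiquimod and Keap1 passed no test. Nfe2l2 read 12.20, 12.37 and 12.46 on the Mock arrays, 12.63, 12.61 and 12.59 on the IMQ arrays and 12.38, 12.45 and 12.39 on the Vanillin arrays. The 3 IMQ arrays lay above all others, and the difference from Mock was 0.27 ± 0.09 (SE, adjusted p = 0.0323). That call was lost without Mock array 1 or 2 or any IMQ array (adjusted p = 0.0571 to 0.103). Against IMQ the Vanillin value was -0.20 ± 0.09 (SE, adjusted p = 0.101). Keap1, the adaptor that targets NRF2 for degradation, read 12.93, 13.35 and 13.40 on the Mock arrays, 13.24, 13.17 and 13.20 on the IMQ arrays and 12.96, 12.86 and 13.03 on the Vanillin arrays. Its IMQ and Mock arrays overlapped, at -0.02 ± 0.13 (SE, adjusted p = 0.892), and its Vanillin arrays lay below the IMQ arrays without passing the test, at -0.25 ± 0.13 (SE, adjusted p = 0.143).

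Nqo1, a quinone reductase and a much used reporter of NRF2 activity, passed no test in any comparison. It read 8.26, 8.23 and 8.21 on the Mock arrays, 8.35, 8.32 and 8.19 on the IMQ arrays and 8.15, 8.35 and 8.20 on the Vanillin arrays. The groups overlapped throughout. Its 95% intervals of the difference were -0.15 to 0.25 for IMQ against Mock (0.05 ± 0.09, SE, adjusted p = 0.657) and -0.26 to 0.14 for Vanillin against IMQ (-0.06 ± 0.09, SE, adjusted p = 0.637). Its probe was at percentile 37.2 of intensity. Hmox1, heme oxygenase 1, read 13.84, 13.36 and 13.20 on the Mock arrays, 13.35, 13.39 and 13.38 on the IMQ arrays and 13.88, 13.97 and 13.64 on the Vanillin arrays. The Vanillin arrays lay above the IMQ arrays, and 2 of the 3 lay above the highest Mock array. The difference was -0.09 ± 0.16 (SE, adjusted p = 0.651) for IMQ against Mock and 0.46 ± 0.16 (SE, adjusted p = 0.0499) for Vanillin against IMQ, just inside the threshold. The second call was lost without Mock array 2, any IMQ array or Vanillin array 1 or 2 (adjusted p = 0.0625 to 0.14).

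Among genes that supply glutathione, Gclc fell in every comparison and Gclm passed no test. Gclc, shown in full after its values were seen, is the catalytic subunit of glutamate-cysteine ligase, which carries out the rate-limiting step of glutathione synthesis. It read 11.45, 11.68 and 11.66 on the Mock arrays, 11.09, 10.91 and 10.94 on the IMQ arrays and 10.73, 10.70 and 10.58 on the Vanillin arrays. Mock arrays were highest and Vanillin arrays lowest, with no overlap between any groups. The difference was -0.61 ± 0.10 (SE, adjusted p = 9.34e-04) for IMQ against Mock, -0.32 ± 0.10 (SE, adjusted p = 0.0326) for Vanillin against IMQ and -0.93 ± 0.10 (SE, adjusted p = 2.07e-04) for Vanillin against Mock. The call against IMQ was lost without any IMQ array or any Vanillin array (adjusted p = 0.0552 to 0.129). Its modifier subunit Gclm gave 0.07 ± 0.12 (SE, adjusted p = 0.667) for IMQ against Mock and 0.21 ± 0.12 (SE, adjusted p = 0.198) for Vanillin against IMQ. Slc7a11, the cystine transporter that feeds the pathway, gave 0.15 ± 0.10 (SE, adjusted p = 0.209) with imiquimod and -0.34 ± 0.10 (SE, adjusted p = 0.0227) for Vanillin against IMQ, a call lost without IMQ array 1 or 3 or Vanillin array 1 (adjusted p = 0.061 to 0.0855). Gsr, the reductase that restores glutathione, gave -0.09 ± 0.12 (SE, adjusted p = 0.546) and -0.42 ± 0.12 (SE, adjusted p = 0.0236), the second lost without any IMQ array or Vanillin array 2 (adjusted p = 0.0652 to 0.0751). Against Mock, Gsr in Vanillin skin was at -0.51 ± 0.12 (SE, adjusted p = 0.0133), a call lost without Mock array 2 (adjusted p = 0.0521). That call was also lost with only these 2 groups in the fit.

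In the thioredoxin group Txn1 and its reductase moved in opposite directions with imiquimod. Txn1, the thiol carrier itself, read 6.32, 6.72 and 6.29 on the Mock arrays, 7.44, 7.46 and 7.40 on the IMQ arrays and 6.54, 6.75 and 7.01 on the Vanillin arrays. The IMQ arrays stood above both other groups. Txn1 rose by 0.99 ± 0.15 (SE, adjusted p = 6.81e-04) with imiquimod and stood lower with vanillin, at -0.66 ± 0.15 (SE, adjusted p = 0.00923), on a dim probe at percentile 19.5. Txnrd1, thioredoxin reductase 1, fell: it gave -0.51 ± 0.09 (SE, adjusted p = 0.00147) for IMQ against Mock, -0.15 ± 0.09 (SE, adjusted p = 0.194) for Vanillin against IMQ and -0.66 ± 0.09 (SE, adjusted p = 7.63e-04) for Vanillin against Mock. Srxn1, which repairs over-oxidised peroxiredoxins, gave -0.02 ± 0.09 (SE, adjusted p = 0.888) and 0.13 ± 0.09 (SE, adjusted p = 0.297). Prdx1, a cytosolic peroxiredoxin, gave 0.09 ± 0.08 (SE, adjusted p = 0.391) with imiquimod and rose by 0.28 ± 0.08 (SE, adjusted p = 0.0251) with vanillin, a call lost without IMQ array 1 or 3 or Vanillin array 1 or 2 (adjusted p = 0.0584 to 0.0977). Prdx1 was 0.37 ± 0.08 (SE, adjusted p = 0.0101) above Mock in Vanillin skin, a call lost with only these 2 groups in the fit (adjusted p = 0.0521). Prdx6 spread widely, with IMQ arrays from 7.89 to 8.73 and Vanillin arrays from 8.51 to 9.25, and none of its differences passed (0.72 ± 0.24, SE, adjusted p = 0.0605 for Vanillin against Mock).

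The 3 measured glutathione peroxidases, which reduce peroxides with glutathione, included Gpx1, which rose with imiquimod, and Gpx3 and Gpx4, which fell. Gpx1, the cytosolic enzyme, read 15.16, 15.13 and 15.06 on the Mock arrays, 15.83, 15.78 and 15.84 on the IMQ arrays and 16.29, 16.16 and 16.25 on the Vanillin arrays. Mock arrays were lowest, IMQ arrays intermediate and Vanillin arrays highest, with no overlap. Gpx1 rose by 0.70 ± 0.08 (SE, adjusted p = 1.31e-04) with imiquimod, by 0.42 ± 0.08 (SE, adjusted p = 0.00452) more with vanillin, and was 2.17-fold above Mock in Vanillin skin (1.12 ± 0.08, SE, adjusted p = 2.17e-05). Gpx1 lay just under the size set for full values and was added after its values were seen. Gpx1 is abundant in red cells and macrophages, whose markers were read beside it. The 2 of 5 red cell markers with a probe summed to intensities of 5620 to 6150 on Mock, 4430 to 4570 on IMQ and 7400 to 8910 on Vanillin arrays, with Alas2 at 1.27 ± 0.15 and Slc4a1 at -0.36 ± 0.13 for Vanillin against IMQ. The 7 of 8 monocyte and macrophage markers with a probe (2 higher and 1 lower with vanillin) summed to 24500 to 26100 on Mock, 30700 to 32000 on IMQ and 29400 to 31000 on Vanillin arrays. Of 7 measured neutrophil markers (of 8) 3 rose and 2 fell with imiquimod, and 5 rose and 0 fell with vanillin. They summed to 4830 to 5190 on Mock, 123000 to 127000 on IMQ and 109000 to 121000 on Vanillin arrays. Activated keratinocyte markers, given below, summed to 403000 to 421000, 1020000 to 1050000 and 1080000 to 1170000 in that order. The part of any of these cells in the Gpx1 result was not tested.

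Gpx3, the secreted plasma peroxidase, fell with imiquimod and rose with vanillin. It read 15.92, 15.72 and 15.65 on the Mock arrays, 14.91, 15.00 and 14.93 on the IMQ arrays and 16.01, 15.76 and 15.77 on the Vanillin arrays. The IMQ arrays lay below both other groups, which overlapped. Gpx3 fell 1.77-fold with imiquimod (-0.82 ± 0.11, SE, adjusted p = 2.74e-04) and was 1.87-fold higher with vanillin (0.90 ± 0.11, SE, adjusted p = 0.00105), which left 0.08 ± 0.11 (SE, adjusted p = 0.611) against Mock. Fat and muscle markers were read beside it. All 9 adipocyte markers had a probe, of which 7 fell and 0 rose with imiquimod and 7 rose and 1 fell with vanillin. Their summed intensity was 302000 to 325000 on Mock, 207000 to 211000 on IMQ and 228000 to 239000 on Vanillin arrays. The 8 of 12 skeletal muscle markers with a probe gave 6 lower and 0 higher with imiquimod, 6 higher and 0 lower with vanillin, and sums of 341000 to 386000 on Mock, 272000 to 278000 on IMQ and 335000 to 358000 on Vanillin arrays. Their part in the results on Gpx3 and, below, Gsta3 was not tested. Gpx4, which reduces lipid peroxides in membranes, fell on its brighter probe by -0.67 ± 0.23 (SE, adjusted p = 0.0337), a call lost without Mock array 1 or 2 or any IMQ array (adjusted p = 0.0645 to 0.107). Its dimmer probe gave 0.14 ± 0.20 (SE, adjusted p = 0.574), and the mean of both probes gave -0.26, so the fall rests on 1 probe. On the brighter probe the Vanillin arrays spread from 15.45 to 16.45.

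Glutathione transferases, which couple glutathione to electrophiles, were called lower more often than higher with imiquimod, as were all genes. Of 10 measured members 5 fell, 1 rose and 4 did not pass, beside 31.6% of all named genes lower and 24.3% higher. Their median difference was -0.29. In all 60% were called beside 55.9% of all genes, a share near the background and no result about the class. With vanillin 3 rose and 0 fell, beside 26.2% and 16.6% of all genes, and the median was -0.12, below 0 although every call was a rise. Markers of some other cells of the skin were also lower with imiquimod. Of 4 measured melanocyte markers (of 6) 4 fell and 0 rose, and they summed to intensities of 149000 to 154000 on Mock, 60800 to 61400 on IMQ and 61000 to 64800 on Vanillin arrays. Of 9 hair shaft markers 7 fell and 0 rose, with sums of 1380000 to 1570000 on Mock, 1140000 to 1170000 on IMQ and 1110000 to 1230000 on Vanillin arrays. Of 6 endothelial markers 5 fell and 0 rose, with sums of 17500 to 18300 on Mock, 10300 to 10900 on IMQ and 12600 to 13000 on Vanillin arrays. Of 7 fibroblast markers 4 fell and 2 rose. They summed to 236000 to 261000 on Mock, 175000 to 181000 on IMQ and 182000 to 191000 on Vanillin arrays. Other lists went otherwise with imiquimod. Of 7 measured neutrophil markers 3 rose and 2 fell. Of 8 measured suprabasal keratinocyte markers 6 rose and 0 fell, of 7 monocyte and macrophage markers 4 rose and 2 fell, and of 5 T cell markers 3 rose and 0 fell. Of 7 basal keratinocyte markers 2 rose and 3 fell, and of 9 sebaceous gland markers 3 rose and 3 fell. The part of any of these cells in the transferase results was not tested. Members of the mu class are close relatives, and whether a probe reads only its own gene was not tested, since the probe letters were not used here.

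Mgst1, a membrane-bound transferase, and Gstp1, the pi-class enzyme, fell with imiquimod and passed no test for Vanillin against IMQ. Mgst1 read 13.86, 14.06 and 13.98 on the Mock arrays, 12.98, 12.94 and 12.89 on the IMQ arrays and 12.84, 13.13 and 12.90 on the Vanillin arrays. Every Mock array lay above every other array. The fall was 2.04-fold with imiquimod (-1.03 ± 0.10, SE, adjusted p = 6.98e-05), the Vanillin difference from IMQ was 0.02 ± 0.10 (SE, adjusted p = 0.871), and Mgst1 in Vanillin skin was below Mock at -1.01 ± 0.10 (SE, adjusted p = 1.54e-04). Gstp1 read 14.97, 15.17 and 15.15 on the Mock arrays, 14.13, 14.18 and 14.13 on the IMQ arrays and 14.12, 14.09 and 14.12 on the Vanillin arrays. All 6 arrays with imiquimod lay close together and below every Mock array. It fell 1.93-fold (-0.95 ± 0.08, SE, adjusted p = 3.64e-05), with -0.04 ± 0.08 (SE, adjusted p = 0.721) for Vanillin against IMQ. Gstt1, of the theta class, gave -0.67 ± 0.12 (SE, adjusted p = 0.00168) against Mock and -0.23 ± 0.12 (SE, adjusted p = 0.148) for Vanillin against IMQ, and the mu-class Gstm2 gave -0.34 ± 0.07 (SE, adjusted p = 0.00449) and -0.19 ± 0.07 (SE, adjusted p = 0.0688).

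Gsta3, an alpha-class transferase, was the member with the largest rise on vanillin. It read 11.33, 11.05 and 10.90 on the Mock arrays, 10.44, 10.53 and 10.37 on the IMQ arrays and 11.58, 11.60 and 11.45 on the Vanillin arrays. IMQ arrays were lowest and Vanillin arrays highest, above every Mock array. The difference was -0.64 ± 0.12 (SE, adjusted p = 0.00199) with imiquimod and 1.10 ± 0.12 (SE, adjusted p = 8.76e-04), or 2.14-fold, for Vanillin against IMQ. Against Mock it was 0.45 ± 0.12 (SE, adjusted p = 0.0229), a call lost without Mock array 2 or 3 or Vanillin array 1 or 2 (adjusted p = 0.0627 to 0.0715). That call was also lost with only these 2 groups in the fit. Gsta4, which removes lipid aldehydes, gave -0.24 ± 0.09 (SE, adjusted p = 0.0579) and 0.33 ± 0.09 (SE, adjusted p = 0.022), the second lost without IMQ array 1 or 3 or Vanillin array 2 (adjusted p = 0.0576 to 0.0878). Gstm3 was the only one of the 10 transferases called higher with imiquimod. It read 6.54, 6.17 and 6.50 on the Mock arrays, 7.34, 7.24 and 7.26 on the IMQ arrays and 7.04, 6.86 and 7.30 on the Vanillin arrays. The Mock arrays lay below all others, at 0.88 ± 0.14 (SE, adjusted p = 8.29e-04) for IMQ and 0.66 ± 0.14 (SE, adjusted p = 0.00752) for Vanillin against Mock, on a dim probe at percentile 19.9. Gsto1, of the omega class, did not pass with imiquimod (0.00 ± 0.19, SE, adjusted p = 0.998) and rose with vanillin (0.69 ± 0.19, SE, adjusted p = 0.0215), a call lost without any IMQ array or Vanillin array 1 or 2 (adjusted p = 0.0523 to 0.0709). Its Mock array 1 read 15.14 beside 14.48 and 14.40 on the others, and the Vanillin against Mock call was lost without Mock array 2 or 3 or Vanillin array 1 or 2 (adjusted p = 0.0754 to 0.0979). That call was also lost with only these 2 groups in the fit. Gstm1 (0.44 ± 0.19 and -0.41 ± 0.19) and Gstm5 (0.05 ± 0.13 and -0.22 ± 0.13) passed neither of these tests.

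**Figure D2:**
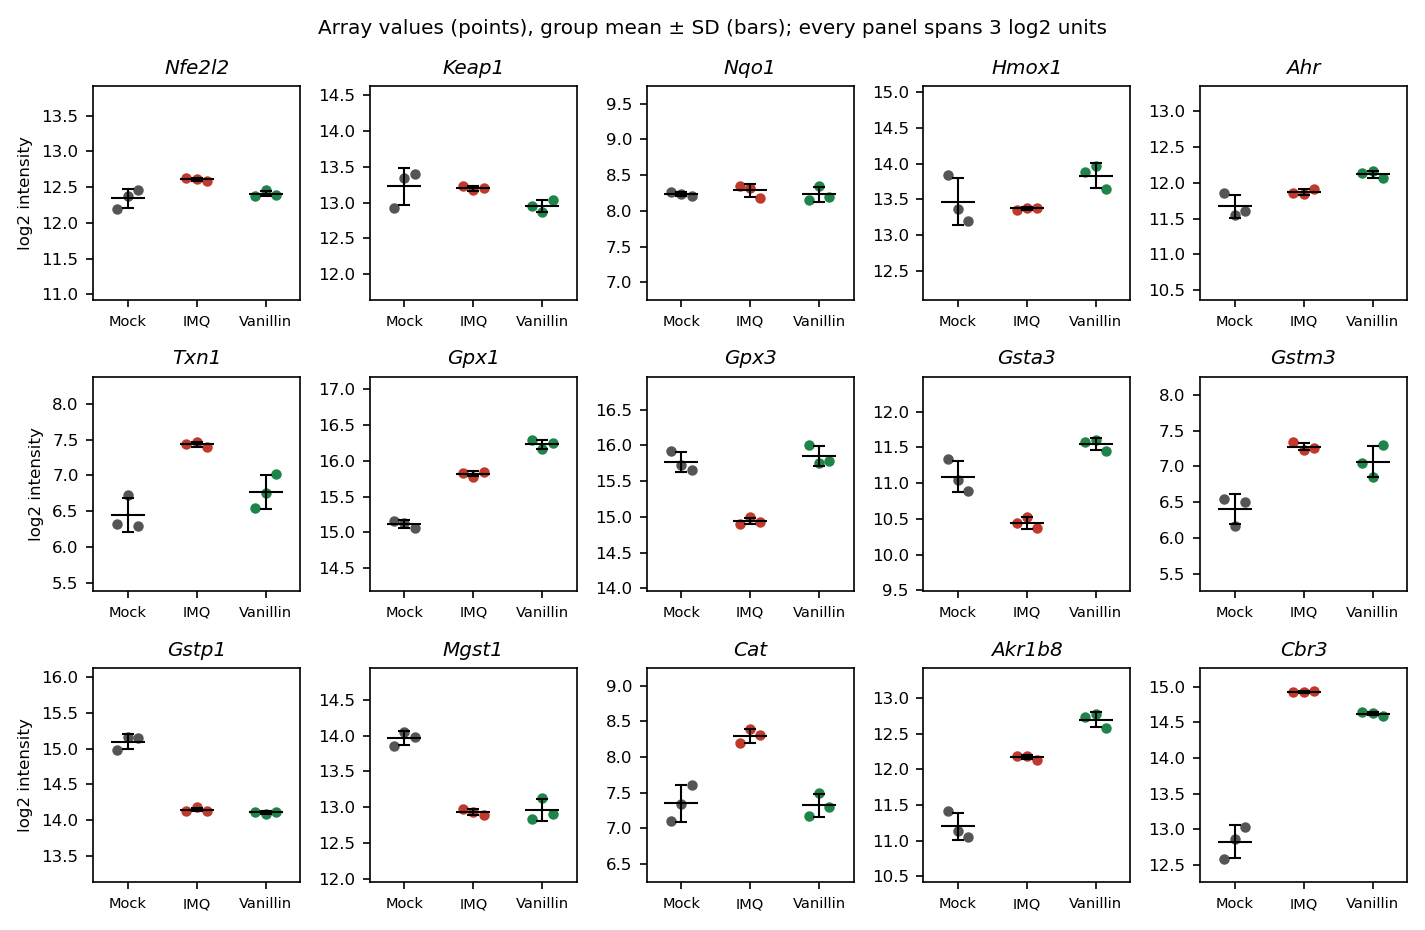
Log2 intensity (y axis, each panel spanning 3 log2 units) of 15 members in Mock, IMQ and Vanillin skin; points are the 3 arrays of a group, bars the mean ± SD. Cat, Txn1, Gpx3 and Gsta3 have IMQ arrays apart from both other groups, Mgst1, Gstp1 and Cbr3 have Mock arrays far from both, and the Nqo1 groups overlap.

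Catalase was higher in IMQ skin than in both other groups. Cat, the enzyme that breaks down hydrogen peroxide, read 7.10, 7.34 and 7.61 on the Mock arrays, 8.20, 8.39 and 8.30 on the IMQ arrays and 7.17, 7.50 and 7.30 on the Vanillin arrays. The IMQ arrays lay above every other array, and Mock and Vanillin arrays overlapped. Cat rose by 0.95 ± 0.14 (SE, adjusted p = 6.24e-04) with imiquimod, stood lower with vanillin, at -0.98 ± 0.14 (SE, adjusted p = 0.00197), and differed from Mock by -0.03 ± 0.14 (SE, adjusted p = 0.909) in Vanillin skin, with a 95% interval of -0.35 to 0.30. Its probe was dim, at percentile 29.4. Sod3, the extracellular superoxide dismutase, rose with imiquimod by 0.56 ± 0.19 (SE, adjusted p = 0.0365), a call lost without Mock array 1 or 3 or any IMQ array (adjusted p = 0.0586 to 0.118), and gave -0.29 ± 0.19 (SE, adjusted p = 0.253) with vanillin. Sod2, the mitochondrial enzyme, also shown in full after its values were seen, read 15.13, 15.13 and 15.05 on the Mock arrays, 14.84, 14.96 and 14.88 on the IMQ arrays and 15.05, 13.53 and 15.04 on the Vanillin arrays on its brighter probe. Vanillin array 2 stood far below the other Vanillin arrays there. No difference of that probe passed (-0.21 ± 0.35, SE, adjusted p = 0.644 with imiquimod). The other Sod2 probe, at percentile 9.8, gave -0.47 ± 0.13 (SE, adjusted p = 0.0131) and, with vanillin, 0.41 ± 0.13 (SE, adjusted p = 0.0318).

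The member with the largest rise with imiquimod was Cbr3, a carbonyl reductase, and Akr1b8, an aldo-keto reductase, rose in every comparison. Both belong to enzyme families that reduce reactive carbonyls and quinones. Cbr3 read 12.58, 12.87 and 13.03 on the Mock arrays, 14.92, 14.92 and 14.93 on the IMQ arrays and 14.64, 14.63 and 14.59 on the Vanillin arrays. No Mock array came within 1 log2 unit of an IMQ array. Cbr3 rose 4.27-fold (2.09 ± 0.11, SE, adjusted p = 4.19e-06). The Vanillin arrays lay slightly below the IMQ arrays at -0.30 ± 0.11 (SE, adjusted p = 0.0599), which did not pass, and stayed 3.46-fold above Mock (1.79 ± 0.11, SE, adjusted p = 1.20e-05). Akr1b8 read 11.42, 11.14 and 11.06 on the Mock arrays, 12.18, 12.18 and 12.13 on the IMQ arrays and 12.73, 12.78 and 12.58 on the Vanillin arrays. Its groups rose in the order Mock, IMQ and Vanillin without overlap. The difference was 0.96 ± 0.11 (SE, adjusted p = 1.43e-04) for IMQ against Mock, 0.53 ± 0.11 (SE, adjusted p = 0.00643) for Vanillin against IMQ and 1.49 ± 0.11 (SE, adjusted p = 2.74e-05), or 2.81-fold, for Vanillin against Mock. Cbr1, the close relative of Cbr3, gave -0.39 ± 0.16 (SE, adjusted p = 0.0689) and -0.06 ± 0.16 (SE, adjusted p = 0.771). Of the 7 activated keratinocyte markers, all with a probe, 6 rose with imiquimod and 2 with vanillin, and they summed to 403000 to 421000 on Mock, 1020000 to 1050000 on IMQ and 1080000 to 1170000 on Vanillin arrays. Their part in the Cbr3 and Akr1b8 results was not tested.

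The receptor Ahr did not pass with imiquimod and read 11.85, 11.55 and 11.61 on the Mock arrays, 11.86, 11.84 and 11.91 on the IMQ arrays and 12.13, 12.16 and 12.07 on the Vanillin arrays. The Vanillin arrays lay above every IMQ and Mock array. The difference was 0.20 ± 0.10 (SE, adjusted p = 0.112) for IMQ against Mock, 0.25 ± 0.10 (SE, adjusted p = 0.0668) for Vanillin against IMQ and 0.45 ± 0.10 (SE, adjusted p = 0.00865) for Vanillin against Mock. Ahrr, the repressor that the receptor induces, rose with imiquimod by 0.48 ± 0.10 (SE, adjusted p = 0.0042), gave 0.15 ± 0.10 (SE, adjusted p = 0.254) for Vanillin against IMQ and was 0.63 ± 0.10 (SE, adjusted p = 0.00212) above Mock. The receptor's best known targets, Cyp1a1 and Cyp1b1, were not analysed here.

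**Figure D3:**
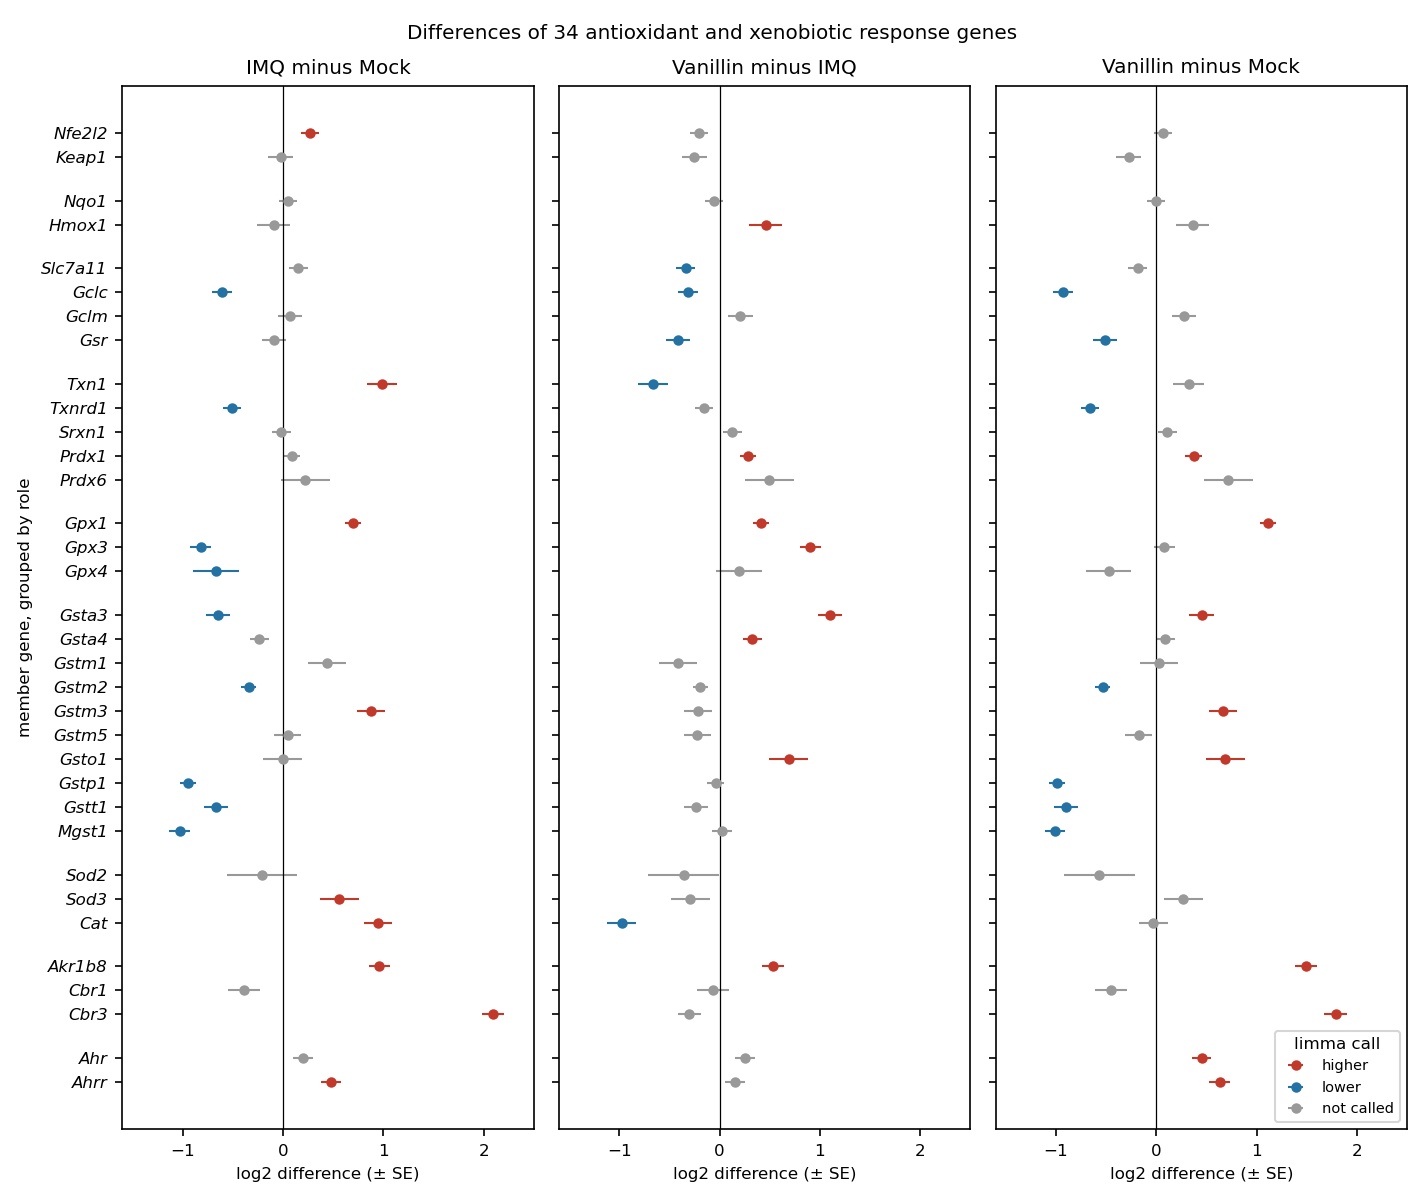
Log2 difference ± SE of the 34 measured members, grouped by role, for IMQ minus Mock, Vanillin minus IMQ and Vanillin minus Mock; red points were called higher, blue lower and grey not called by limma. Cbr3 lies farthest right in the first and the third panel, and Gsta3, Gpx3 and Cat hold the largest differences of the second. Gclc, Txnrd1, Gstm2, Gstp1, Gstt1 and Mgst1 are blue in both the first and the third.

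Further genes of these pathways were read from lists of genes that are no members. Of 23 measured other NRF2 pathway genes 5 rose, 11 fell and 7 did not pass in IMQ against Mock, with a median of -0.32. With vanillin 8 rose and 5 fell, with a median of 0.16. Of all genes 24.3% rose and 31.6% fell in the first comparison, and 26.2% and 16.6% in the second. The list had 69.6% called with imiquimod beside 55.9% of all genes and 56.5% beside 42.8% with vanillin. Bach1, a repressor that competes with NRF2 at response elements, rose with imiquimod: it read 9.74, 10.10 and 10.11 on the Mock arrays, 11.82, 11.82 and 11.85 on the IMQ arrays and 10.68, 10.19 and 11.02 on the Vanillin arrays, at 1.85 ± 0.20 (SE, adjusted p = 1.01e-04) and -1.20 ± 0.20 (SE, adjusted p = 0.00285). Its relative Bach2, also called in both, gave -0.93 ± 0.12 and 0.66 ± 0.12. Idh1, which supplies NADPH, fell by 1.97 ± 0.13 (SE, adjusted p = 1.06e-05) and rose by 0.60 ± 0.13 (SE, adjusted p = 0.00755) with vanillin. Osgin1, an NRF2 target, gave -1.34 ± 0.08 and 0.45 ± 0.08, the epoxide hydrolase Ephx1 -1.01 ± 0.10 and 0.59 ± 0.10, and the aldehyde oxidase Aox1 -0.55 ± 0.09 and 0.52 ± 0.09, all called. Ftl1, the ferritin light chain, gave -0.96 ± 0.10 and 0.34 ± 0.10 on a dim probe, the second lost without IMQ array 1 or 3 or Vanillin array 1 or 2 (adjusted p = 0.0594 to 0.0877).

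Of 24 measured other thioredoxin and glutathione system genes 6 rose and 8 fell with imiquimod (median -0.10), and 3 rose and 5 fell with vanillin (median 0.01). These counts are 58.3% called with imiquimod beside 55.9% of all genes and 33.3% beside 42.8% with vanillin. Glutaredoxin, Glrx, which removes glutathione from proteins, rose 6.91-fold with imiquimod (2.79 ± 0.13, SE, adjusted p = 1.61e-06). Ggct, which degrades glutathione-derived dipeptides, rose 4.16-fold (2.06 ± 0.09, SE, adjusted p = 1.55e-06). With vanillin they gave -0.34 ± 0.13 (SE, adjusted p = 0.0566) and 0.08 ± 0.09 (SE, adjusted p = 0.522), neither past the threshold. Txnip, the inhibitor of thioredoxin, fell by 0.77 ± 0.09 (SE, adjusted p = 1.35e-04). Txnrd2, the mitochondrial thioredoxin reductase, gave -0.47 ± 0.07 with imiquimod and 0.44 ± 0.07 with vanillin, and Gpx8 gave -0.84 ± 0.10 and 0.60 ± 0.10, all called. Gpx7 gave 0.75 ± 0.08 and -0.31 ± 0.08, the second lost without IMQ array 1 or 3 (adjusted p = 0.0507 to 0.0575). Gpx5 gave 0.49 ± 0.10 and -0.38 ± 0.10, the second lost without IMQ array 1 or 3 or Vanillin array 1 (adjusted p = 0.0547 to 0.0613).

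All 13 other glutathione transferases had a probe, of which 3 rose and 5 fell with imiquimod (median -0.15) and 6 rose and 1 fell with vanillin (median 0.32). That is 61.5% called with imiquimod beside 55.9% of all genes and 53.8% beside 42.8% with vanillin. Mgst2, which can make leukotriene C4, rose where its relative Mgst1 fell. It read 11.22, 11.57 and 11.59 on the Mock arrays, 14.38, 14.41 and 14.45 on the IMQ arrays and 13.86, 13.66 and 13.70 on the Vanillin arrays. Mock arrays were lowest and IMQ arrays highest, a 7.76-fold rise (2.96 ± 0.12, SE, adjusted p = 7.63e-07) and Vanillin arrays lay below the IMQ arrays at -0.67 ± 0.12 (SE, adjusted p = 0.0033). Ptges, the inducible prostaglandin E synthase, rose with imiquimod by 1.99 ± 0.13 (SE, adjusted p = 9.10e-06) and again with vanillin by 0.60 ± 0.13 (SE, adjusted p = 0.00717). Gstm6 rose by 1.60 ± 0.09 (SE, adjusted p = 5.42e-06) and by 0.32 ± 0.09 (SE, adjusted p = 0.0221) with vanillin, a call lost without any IMQ array or Vanillin array 1 or 2 (adjusted p = 0.0598 to 0.0742). Gstt3 fell by 0.97 ± 0.08 (SE, adjusted p = 2.93e-05). Gstm7 gave -0.27 ± 0.10 (SE, adjusted p = 0.0379), lost without Mock array 1 or 2 or any IMQ array (adjusted p = 0.0704 to 0.124), and 0.55 ± 0.10 (SE, adjusted p = 0.00358) with vanillin. Hpgds, the hematopoietic prostaglandin D synthase, gave -0.12 ± 0.14 (SE, adjusted p = 0.495) and 0.80 ± 0.14 (SE, adjusted p = 0.00339), while its dimmer probe gave -1.23 ± 0.14 (SE, adjusted p = 1.73e-04) and 0.85 ± 0.14 (SE, adjusted p = 0.0032).

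Of 6 measured other aryl hydrocarbon receptor genes 3 rose and 1 fell with imiquimod, and 1, Tiparp, rose and 2 fell with vanillin, or 66.7% called with imiquimod beside 55.9% of all genes and 50% beside 42.8% with vanillin. Ptges3, the p23 co-chaperone of the receptor complex, rose by 1.73 ± 0.12 (SE, adjusted p = 1.40e-05) and stood lower with vanillin, at -0.61 ± 0.12 (SE, adjusted p = 0.00568). Tiparp, a target and repressor of the receptor, gave 0.38 ± 0.12 (SE, adjusted p = 0.0235) with imiquimod, lost without Mock array 2 or 3 or any IMQ array (adjusted p = 0.0529 to 0.0769), and 0.67 ± 0.12 (SE, adjusted p = 0.00357) with vanillin. Its dimmer probe opposed the second value, with 0.78 ± 0.12 (SE, adjusted p = 6.74e-04) and -0.39 ± 0.12 (SE, adjusted p = 0.0288), so no direction is read for Tiparp with vanillin. Aldh3a1, an aldehyde dehydrogenase, gave 0.29 ± 0.09 (SE, adjusted p = 0.0298), lost without Mock array 1 or 2 or any IMQ array (adjusted p = 0.0591 to 0.0836), and -0.60 ± 0.09 (SE, adjusted p = 0.00244) with vanillin. Arnt2 gave -0.30 ± 0.11 (SE, adjusted p = 0.0478), lost without Mock array 2 or 3, any IMQ array or Vanillin array 1 or 2 (adjusted p = 0.0607 to 0.16). Among 8 of 16 oxidant-producing oxidase genes with a probe 3 rose and 2 fell with imiquimod, and 1 rose and 0 fell with vanillin, or 62.5% called with imiquimod beside 55.9% of all genes and 12.5% beside 42.8% with vanillin. Duox1, an epithelial enzyme that makes hydrogen peroxide, rose by 0.996 ± 0.10 (SE, adjusted p = 5.93e-05), and by 0.39 ± 0.10 (SE, adjusted p = 0.0125) with vanillin, a call lost without IMQ array 3 (adjusted p = 0.055). Its maturation factor Duoxa1 rose by 0.67 ± 0.10 (SE, adjusted p = 4.71e-04). The oxidase subunit Ncf4 gave 0.40 ± 0.11 (SE, adjusted p = 0.0135) and xanthine dehydrogenase, Xdh, -0.50 ± 0.13 (SE, adjusted p = 0.0122).

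**Figure D4:**
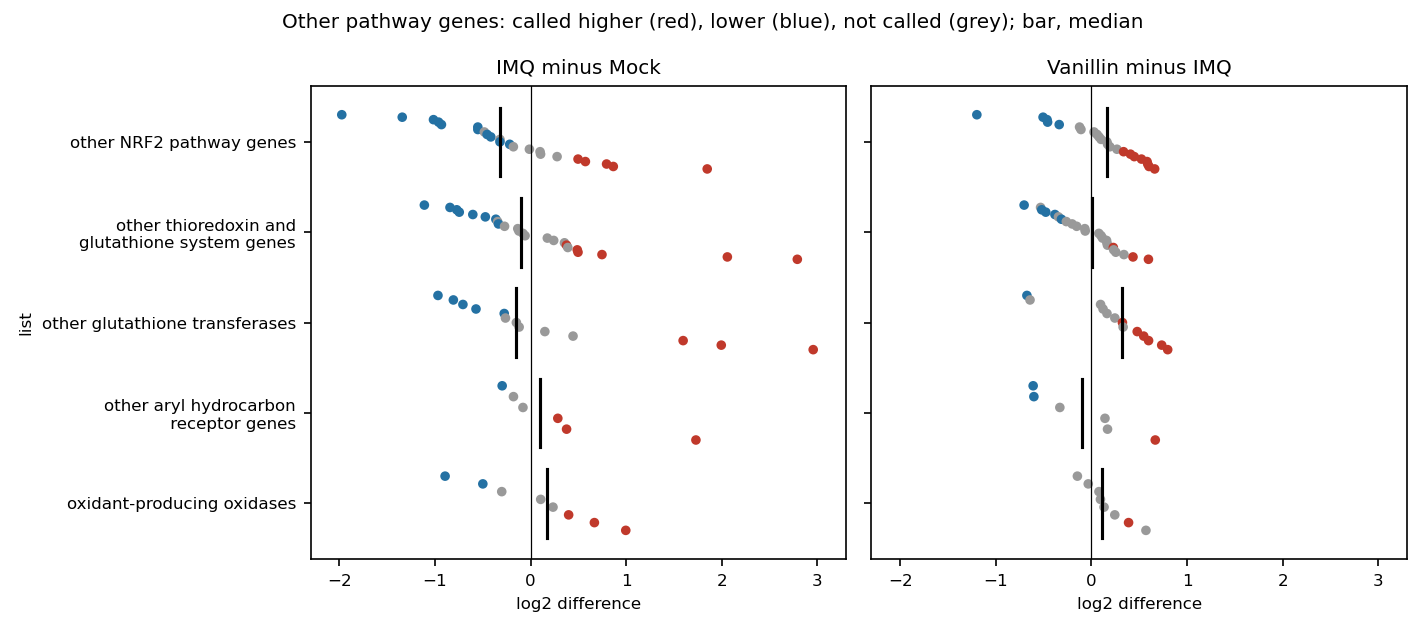
Log2 difference of each measured gene of 5 lists of further pathway genes, for IMQ minus Mock and Vanillin minus IMQ; red points were called higher, blue lower and grey not called, and a bar marks the list's median. In the first panel Mgst2 at 2.96 and Glrx at 2.79 lie farthest right and Idh1 at -1.97 farthest left, and in the second Bach1 at -1.20 lies farthest left.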

How the data were processed

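Cy5-labelled total RNA of 9 samples was hybridised to 1-colour arrays. Per the labels, the deposited value of each probe is an intensity, and the submitters' processing notes name limma without a version. For scanner, background correction and normalization the entry is: not given in the sources used here. Values under 1 (2 to 3 an array) were set to 1 before log2 was taken. Probes were named from the platform annotation and updated through RefSeq synonyms: 20377 of 26423 probes had 1 symbol, none had several and 6046 had none. A gene with several probes was read from the one with the highest mean. All 9 arrays and 3 groups entered 1 limma 3.58.1 fit (lmFit and eBayes, R 4.3.3), with Benjamini-Hochberg adjustment over all probes. The code was tested on simulated data. Arrays have no read depth, and precision depends on how many arrays there are and on how far each probe scatters. At the same 3 arrays a group, the SE of a member ran from 0.07 (Gstm2) to 0.35 (Sod2).

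The 41 members, the other pathway genes and the markers were chosen with earlier results of these data known. Full values are given for Nfe2l2, Keap1, Nqo1, Hmox1, Ahr and every member called with a log2 difference of at least 0.7 in either direction in IMQ against Mock or Vanillin against IMQ. Gpx1, Gclc and Sod2, and Bach1 and Mgst2 of the other lists, were given in full after their values were seen. From each list of other genes, up to 4 called genes with the smallest p were named per comparison. Alternatives were other normalizations, filters, offsets, priors, weights, thresholds and probe rules, a replicate block, and each array left out in turn.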

Additional observations from a re-analysis of the deposited data

How the results depend on the processing

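Of 18 members called in IMQ against Mock, 15 stayed called under every one of the 19 alternatives run that gave it a value, as did 6 of 13 in Vanillin against IMQ and 12 of 16 in Vanillin against Mock. Without 1 array the number called was 15 to 20, 6 to 19 and 13 to 19. Under the 10 other alternatives it was 15 to 24, 6 to 26 and 12 to 20. For Vanillin against IMQ, array weights gave 26 and an adjusted p under 0.01 gave 6. The cause of the first was not tested; the second is a stricter threshold. Of 1932 values of single members, 1783 kept their side of the threshold, 79 lost a call, 70 gained one and 0 called values reversed. Among the 1783, 28 uncalled values turned sign. With the replicate block 16, 12 and 17 members were called. Correlations of the deviations of same-numbered arrays ran from -0.27 to 0.22, and a sample correlated best with its own number in 6 of 18 cases, so the numbers do not pair the samples. Scaling or weighting shifted the median of all probes by -0.0449 log2 units at the most. Leaving out the lowest 25% of probes removed dim members such as Txn1 and Gstm3, which have no value there. With the mean of both probes, Gpx4 gave -0.26 for IMQ against Mock.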
